A study of Mus musculus with 4 samples.

Results

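Isl1, a LIM-homeodomain transcription factor gene, and 6 T-box transcription factor genes, Tbx2, Tbx3, Tbx4, Tbx5, Tbx15 and Tbx18, were followed through the cell populations of the fetal mouse penis. The 7 genes were chosen by name, with earlier results of these data known. All 7 were found by their symbols among the 32287 features of the gene tables. Penises of male mouse embryos at embryonic day 16.5, while the urethra closes, were dissociated and profiled by droplet single-cell RNA sequencing (10x Genomics), in which each captured transcript is counted once by its unique molecular identifier (UMI). There were 2 libraries of DTA- embryos, the controls, and 2 of DTA+ embryos. Per the study's design the DTA- embryos carried 1 Rosa-DTA allele and no Nr5a1-Cre, although their genotype label reads WT, and the DTA+ embryos carried the same Rosa-DTA allele together with the Nr5a1-Cre transgene, so that diphtheria toxin A is made in, and kills, cells of the Nr5a1 lineage. Per the study, Nr5a1-Cre also acts in the testis and adrenal gland, and ablated embryos had much smaller testes and no adrenals that could be found. These changes cannot be told apart here from the removal of most, not all, Nr5a1-lineage cells in the penis. The study also gave testosterone to ablated embryos, and most males still had severe hypospadias. Per its methods, the Cre-carrying fathers and the ablated embryos also carried a tdTomato reporter, which the labels do not list. The study describes a low background of tdTomato transcript in most cells. Here tdTomato was counted in the DTA+ libraries only, so the reporter cannot be told apart from the ablation either. No source says that the 2 libraries of a genotype came from separate litters or dissections. The p-values therefore measure the spread between these libraries only, or within them in the test of variation between populations.

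T-box proteins bind DNA through a shared domain and act as activators or repressors of transcription, often several in the same cell. Tbx2 and Tbx4 are neighbouring paralogues, as are Tbx3 and Tbx5, each pair descending from a tandem duplication. In the limb, Tbx4 is known for the hindlimb and Tbx5 for the forelimb, and Tbx2 and Tbx3 are repressors active in limb, heart and mammary gland. Tbx15 and Tbx18 are close relatives, Tbx15 known for skeletal and dorsal skin patterning and Tbx18 for ureter, somite and sinus horn mesenchyme. Isl1 marks the mesoderm from which the hindlimb bud and the genital tubercle arise and acts upstream of hindlimb outgrowth.

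The gene models are those of GENCODE M21 on GRCm38 (mm10). Isl1 lies at chr13:116298281-116309689 on the minus strand. Tbx2, at chr11:85832551-85841948, and Tbx4, at chr11:85886422-85916097, lie on the plus strand with 44.5 kb between them. Tbx3, at chr5:119670669-119684724, and Tbx5, at chr5:119832668-119885219, lie on the plus strand with 148 kb between them. Tbx15 lies at chr3:99240381-99354259 on the plus strand and Tbx18 at chr9:87702800-87731260 on the minus strand. All 7 are protein-coding. The antisense gene Tbx3os1, at chr5:119570130-119671365, shares 697 bases with Tbx3, and whether the counting used strand is not given in the sources used here, so reads from those bases cannot be assigned to one gene with certainty.

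The sequence before the annotated start was taken from RefSeq (GRCm38.p6) for the members that had an entry, which were 3 of 7 (Isl1, Tbx4 and Tbx18), over 240 bases from 250 to 11 bases upstream. Isl1 and Tbx18 are shown because most of the calls described below fell on them. Capitals mark CTAATG, a recorded Isl1 binding motif, and everything else is in lower case. The Isl1 window is chr13:116309699-116309938 and the Tbx18 window chr9:87731271-87731510, each printed 5′ to 3′ on the minus strand of the genome, the strand of the gene.
Isl1: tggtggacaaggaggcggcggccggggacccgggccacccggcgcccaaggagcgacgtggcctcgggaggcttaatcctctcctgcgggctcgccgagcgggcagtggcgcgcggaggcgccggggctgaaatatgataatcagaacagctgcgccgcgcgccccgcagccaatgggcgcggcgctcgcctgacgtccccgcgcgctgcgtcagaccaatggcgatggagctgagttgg
Tbx18: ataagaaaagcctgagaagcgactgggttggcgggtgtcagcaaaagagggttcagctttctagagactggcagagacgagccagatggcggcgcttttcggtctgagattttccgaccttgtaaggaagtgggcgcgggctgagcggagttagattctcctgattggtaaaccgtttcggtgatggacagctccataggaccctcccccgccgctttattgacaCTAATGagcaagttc
The Tbx18 window held CTAATG once, beginning 25 bases before the start, and it overlaps an exon of D030062O11Rik. The Isl1 window held none of the 4 motifs searched on both strands. The Tbx4 window, chr11:85896515-85896754, precedes a RefSeq start that lies inside the GENCODE model given above rather than at its 5′ end, and it also held none. Of 32851 windows of the same length, 6.18% held CTAATG, 4.77% held the LIM-homeodomain site TAATTA, 1.07% held the T-box site AGGTGTGA and 15.7% held its core GGTGTG, which is part of the longer site. A match is a description of these letters only.

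The 4 tables held 47040 cell barcodes, between 11343 and 12580 a library, with 50779551 to 73577028 UMIs a library. After the study's filters 31132 cells remained, 6573 to 8810 a library, with median depths of 3551 to 4700 UMIs, the DTA- libraries being deeper. The filters kept 52.2 and 67.8% of the DTA- barcodes and 68.4 and 77.7% of the DTA+ barcodes, so the loss differed between genotypes. Any 2 libraries shared at most 48 barcodes. Nr5a1 itself had 1 or 2 UMIs in each library and so gives no check of the ablation, and the DTA+ libraries held 3579 and 3140 UMIs of tdTomato and both DTA- libraries 0. Clustering without the 7 genes gave 27 clusters, which were joined into 23 populations, 15 of them mesenchymal. Populations were named after markers where enough were enriched and otherwise after leading genes.

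Most UMIs of the 7 genes came from mesenchymal cells, as did most UMIs of all genes. Mesenchymal cells made up 28305 of the kept cells and held 88.8 to 93.6% of all UMIs in the 4 libraries, and they held 92.2 to 98.4% of Isl1 UMIs, 95.1 to 98.5% of Tbx3 UMIs, 95.5 to 98.9% of Tbx4 UMIs and 95.1 to 99% of Tbx5 UMIs. The shares were nearer to that of all UMIs for Tbx2, at 91.7 to 97%, Tbx15, at 92 to 98.1%, and Tbx18, at 89.5 to 98.1%, and in DTA- replicate 2 the Tbx18 share of 89.5% stood beside 88.8% of all UMIs. These shares depend on which clusters count as mesenchyme. Smooth muscle-like and pericyte-like cells were left out by their lineage names, although 9 and 5 mesenchyme markers were enriched in them. In DTA- replicate 2 they held 47 and 23 of 760 Tbx18 UMIs. Levels are given as CPM, the UMIs of a gene per 1000000 UMIs of the summed cells, in the order DTA- replicate 1, DTA- replicate 2, DTA+ replicate 1, DTA+ replicate 2.

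Isl1 was found throughout the mesenchyme. Over all mesenchymal cells its level was 380, 298, 409 and 460 CPM. After every cell was thinned to 1000 UMIs, an Isl1 UMI was seen in 31.4, 25.1, 32.9 and 35.9% of mesenchymal cells, against 1.41, 1.47, 1.56 and 1.08% of endothelial cells, which should lack it. Unthinned, these shares were 74.1, 63.8, 69.4 and 73.4% of mesenchymal cells at median depths of 4709, 4064, 3503.5 and 3533 UMIs, and 4.93, 5.88, 10.2 and 5.38% of endothelial cells at 3171.5, 2562.5, 3643.5 and 4265 UMIs. Mesenchymal shares were therefore far above the free-RNA background in all 4 libraries. Among the 13 mesenchymal populations with enough DTA- cells, the mean Isl1 level ran from 183 ± 18.2 CPM (SD, n = 2) in the Irx1/Col7a1 mesenchyme to 590 ± 105 CPM in the Rprm/Dsc3 mesenchyme, a 3.22-fold range. The smooth muscle-like cells, at 588 and 551 CPM in the DTA- libraries, stood as high as the latter. The DTA+ libraries held only 32 and 11 of these cells, at 508 and 812 CPM. Epithelium-like cells held 89.2, 134, 98.3 and 129 CPM, and an Isl1 UMI in 6.42, 8.51, 7.95 and 11% of thinned cells, above the endothelial share in every library. Erythroid-like cells, in which 9 of 9 mesenchyme markers were also enriched, held Isl1 at 281, 173, 266 and 300 CPM and were not used as background.

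Tbx2 and Tbx4 had wide ranges within the mesenchyme, and these rest on the low Irx1/Col7a1 mesenchyme. The next lowest mesenchymal DTA- mean was 46.9 CPM for Tbx2 and 46.3 CPM for Tbx4, both in the corpus cavernosum-like mesenchyme. The DTA- mean of Tbx2 ran from 12.6 ± 0.307 CPM in the Irx1/Col7a1 mesenchyme to 124 ± 11.9 CPM in the distal glans-like mesenchyme, a 9.84-fold range. The highest Tbx2 level of any population was in pericyte-like cells, at 356, 139, 161 and 157 CPM. These cells, not counted as mesenchyme, ranked first for Tbx2 in both genotypes. DTA- replicate 1, with 22 pericyte-like cells, stood above the other 3 libraries, which were close to each other. Tbx4 ran from 12 ± 1.23 CPM in the Irx1/Col7a1 mesenchyme to 196 ± 37.3 CPM in the Rprm/Dsc3 mesenchyme, a 16.3-fold range. In pericyte-like cells, where Tbx2 was highest, Tbx4 was at 8.9, 8.04, 8.06 and 12.4 CPM. The Irx1/Col7a1 mesenchyme was the lowest mesenchymal population for Tbx2 and Tbx4 in both genotypes.

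Tbx3 and Tbx5 had smaller ranges and were not lowest in the Irx1/Col7a1 mesenchyme. Tbx3 was at 280, 227, 318 and 364 CPM over all mesenchyme, and its DTA- mean ran from 138 ± 46.5 CPM in the corpus cavernosum-like mesenchyme, which carries cartilage markers such as Sox9 and Col9a1, to 492 ± 51.6 CPM in the Rprm/Dsc3 mesenchyme, a 3.57-fold range. Tbx5, at 94.4, 82.5, 89.4 and 105 CPM over all mesenchyme, ran from 42.1 ± 2.06 CPM in the Prss35/Hand2 mesenchyme to 129 ± 18.9 CPM in the distal glans-like mesenchyme, a 3.06-fold range. Tbx3 was also counted in epithelium-like cells, at 68, 47.4, 56.2 and 54 CPM, while Tbx5 was there at 7.04, 0, 3.51 and 9.01 CPM. The endothelium-like cells held Tbx3 at 36, 26.6, 20.2 and 35.5 CPM, below the epithelium-like value in each library.

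Tbx15 was low in most populations, and Tbx18 was spread more widely. Tbx15 was at 6.64, 11.9, 14.4 and 8.21 CPM over all mesenchyme and reached 33.2, 50.7, 46 and 45.3 CPM in the Irx1/Col7a1 mesenchyme. There a Tbx15 UMI was seen in 3.95, 4.6, 3.75 and 4.66% of thinned cells, and unthinned in 14.1, 18.5, 18.6 and 17.8%. Endothelium-like cells of the DTA- libraries had no Tbx15 UMI in 278 cells, which allows a share of up to 1.08%. The Kera/Nefl mesenchyme of the DTA- libraries had none in 399 cells, which allows a share of up to 0.752%. Such limits cover counting error only and apply to cells with a captured UMI, not to cells that express the gene. Tbx18 was at 57.9, 60.6, 69.6 and 46.5 CPM in the Irx1/Col7a1 mesenchyme and at 62.3, 61.7, 34.9 and 45.4 CPM in pericyte-like cells. Smooth muscle-like cells of the DTA- libraries had a mean of 51.7 CPM and the subdermal prepuce-like mesenchyme 43.3 CPM. A further 7 mesenchymal populations had DTA- means between 21.2 CPM in the Kera/Nefl and 30.7 CPM in the Prss35/Hand2 mesenchyme. Its lowest mesenchymal level was in the Rprm/Dsc3 mesenchyme, at 5.18, 0, 1.9 and 2.46 CPM. Among the ranked mesenchymal populations of the DTA- libraries, the Irx1/Col7a1 mesenchyme was thus the highest for Tbx15 and Tbx18 and the lowest for Isl1, Tbx2 and Tbx4.

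**Figure D1:**
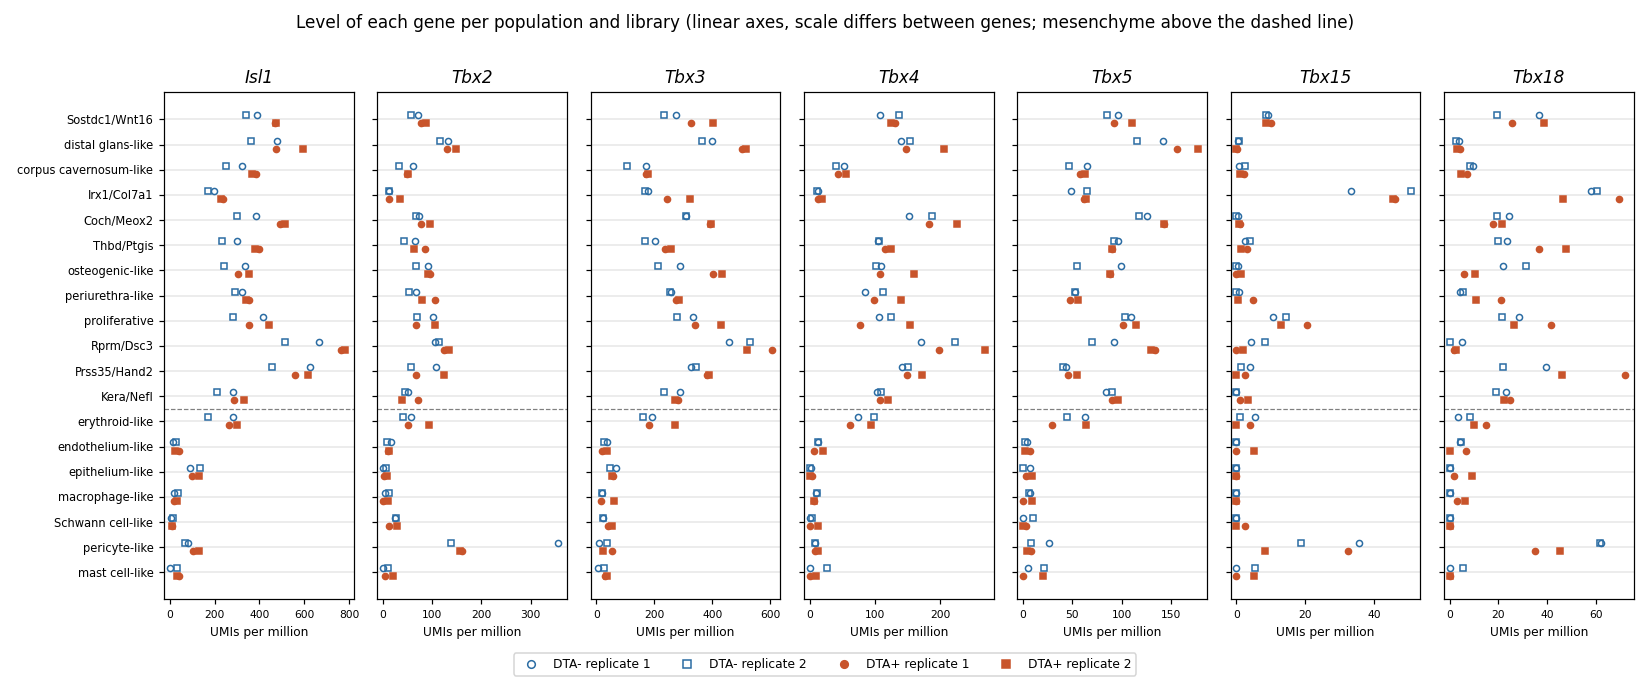
Each panel plots 1 gene in CPM (linear axes that differ between genes) for 19 populations, with 1 point a library, open for DTA- and filled for DTA+, and mesenchymal populations above the dashed line. Isl1, Tbx3 and Tbx4 peak in the Rprm/Dsc3 mesenchyme, whereas Tbx15 and Tbx18 are high in the Irx1/Col7a1 mesenchyme, at 33.2 to 50.7 and 46.5 to 69.6 CPM.

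The order of populations was resolved only in part. Of the 20 steps between neighbours in the DTA- order of 21 populations, the values of neighbouring populations overlapped between libraries in 17 for Isl1, 15 for Tbx2, 13 for Tbx3, 15 for Tbx4, 15 for Tbx5, 16 for Tbx15 and 14 for Tbx18. The populations at the ends of each gene's mesenchymal range were the same in the DTA+ libraries for Isl1, Tbx2, Tbx3, Tbx4 and Tbx5. For Tbx15 the lowest DTA+ population was the distal glans-like mesenchyme, and for Tbx18 the highest was the Ccn3-led mesenchyme, at 121 ± 45.3 CPM (SD, n = 2), which had too few DTA- cells to be ranked there.

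**Figure D2:**
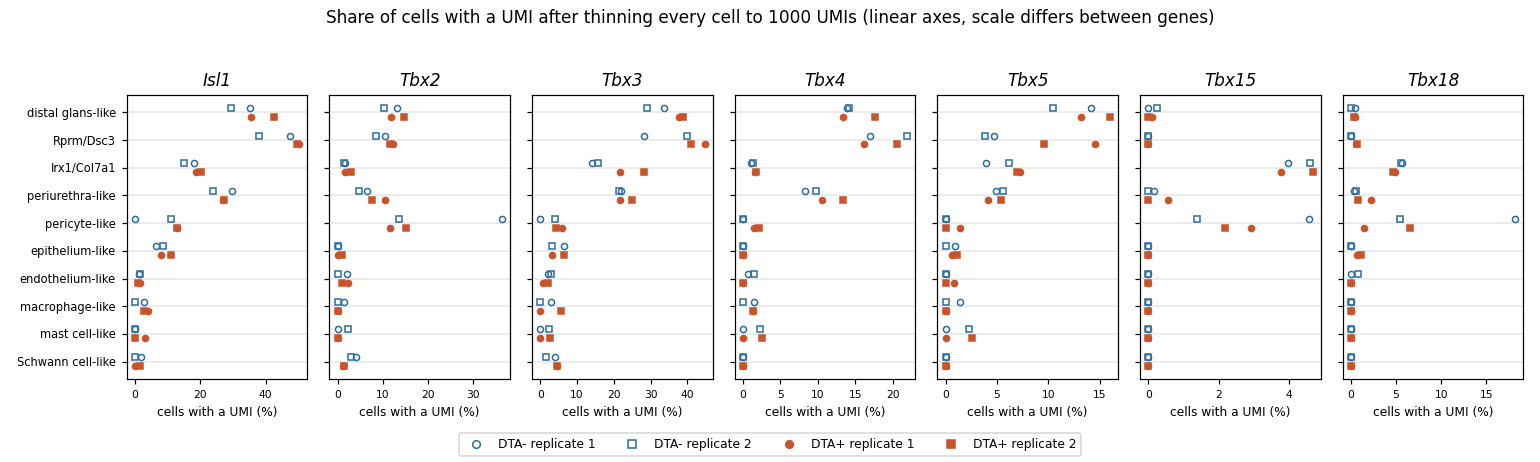
Each panel plots, for 1 gene, the percentage of cells with a UMI after thinning every cell to 1000 UMIs, by population and library (open DTA-, filled DTA+, linear axes that differ between genes). Macrophage-, mast cell- and Schwann cell-like cells lie at or below 5.63% for all 7 genes, and Isl1 in mesenchymal populations lies well above its endothelial shares of 1.08 to 1.56%.

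Profiles across the mesenchymal populations ran together for some members. Over 13 populations of the DTA- libraries and 14 of the DTA+ libraries, Pearson's r of log2(CPM + 10) was 0.90 and 0.89 for the linked pair Tbx2 and Tbx4, and 0.32 and 0.64 for the linked pair Tbx3 and Tbx5. For the unlinked relatives Tbx15 and Tbx18 it was 0.62 and 0.66. Isl1 followed Tbx2 at 0.81 and 0.79 and Tbx4 at 0.75 and 0.76. Tbx4 and Tbx15 ran opposite to each other, at -0.62 and -0.65. In the DTA- libraries the Irx1/Col7a1 mesenchyme stood apart in these profiles. Its Tbx4 mean was 12 CPM, beside 46.3 CPM in the next lowest mesenchymal population, and its Tbx2 mean 12.6 CPM, beside 46.9 CPM. Its Tbx15 mean was 42 CPM, beside 19.9 CPM in the next highest. The r values of these genes lean on that population, and r without it was not computed. All r values here are descriptions over populations of the same 4 libraries, with no test.

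Over all populations, with 21 in the DTA- libraries and 10312 genes compared, the genes most like Isl1 were Rac3 at r = 0.945, Mdk at 0.938 and Tead3 at 0.937. Those most like Tbx3 were Ssbp3 at 0.957, Cacna1g at 0.956 and Cdh11 at 0.94, and those most like Tbx5 were Cdh11 at 0.921 and Cacna1g at 0.914. Tbx4 was followed by Epha5 at 0.92, Cacna1g at 0.912 and Hoxa11 at 0.906. Ublcp1 at 0.89, Zfp449 at 0.874 and Zswim9 at 0.861 were nearest to Tbx2. Rpl39l at 0.92, Gm14964 at 0.821 and Nrxn2 at 0.819 were nearest to Tbx15, and Vegfc at 0.83, Gpc4 at 0.826 and Triqk at 0.822 to Tbx18. These genes were chosen as the highest in the DTA- libraries, so lower values are usual in the DTA+ libraries, where r ran from 0.511 for Vegfc with Tbx18 to 0.961 for Cdh11 with Tbx3. The populations here include those outside the mesenchyme, in most of which Tbx3 and Tbx5 were low. Such r values therefore also carry the difference between mesenchyme and other cells. Tbx3 and Tbx5 share Cdh11 and Cacna1g, yet had r = 0.32 with each other within the DTA- mesenchyme.

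Next, DTA+ was compared with DTA- to ask how the levels of these genes stood after the ablation. Counts were summed per library, and fold changes below are log2 of DTA+ over DTA- with their standard errors, from the quasi-likelihood test of edgeR, with p-values adjusted over all genes tested by the Benjamini-Hochberg method. Over all mesenchyme, 0 of the 7 genes were called at an adjusted p under 0.05, where 1.18% of 15200 genes were called. Tbx3 and Tbx18 had an unadjusted p under 0.05, so 2 of 7 did, where 17.3% of all genes did, and DESeq2 called 0. All 7 fold changes were above 0, with a median of 0.23 against 0 for all genes.

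Tbx18 was at 25.3, 23.3, 33.1 and 33.6 CPM over all mesenchyme, both DTA+ libraries above both DTA- libraries, with a fold change of 0.39 ± 0.12 (SE) and an adjusted p of 0.191. With cells thinned to 1000 UMIs the Tbx18 fold change was 0.176. Tbx3 differed by 0.36 ± 0.14 (adjusted p = 0.255) and Isl1 by 0.29 ± 0.14 (adjusted p = 0.352). Without DTA- replicate 2 these became 0.202 for Tbx3 and 0.109 for Isl1, and without DTA- replicate 1 they became 0.519 and 0.478. The genotypes did not overlap for these 3 of 7 genes, and the same held for 33.3% of all genes in that direction. For Tbx2, at 80.1, 57.1, 75.5 and 94 CPM, the genotypes overlapped, as they did for Tbx4, Tbx5 and Tbx15, whose fold changes were 0.11 ± 0.18, 0.06 ± 0.13 and 0.22 ± 0.35. Over all kept cells, 0 of 7 were called, where 0.344% of 15976 genes were called. There 1 of 7, Tbx18, had an unadjusted p under 0.05, where 15.1% of all genes did, and DESeq2 called 0. In such sums, fewer cells of a type and less RNA per cell cannot be told apart. Markers of other cells differed too: the summed distal glans markers were at 1320, 1170, 1590 and 1970 CPM over all mesenchyme, the erythroid markers at 3180, 2200, 1930 and 635 CPM and the endothelial markers at 7.1, 8.2, 13 and 13.4 CPM, with 7 of 7 endothelial markers higher. Their part in the result was not tested.

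Within populations, Isl1 and Tbx3 lay above 0 in every mesenchymal population fitted, 12 of 12 each. Isl1 ran from 0.13 to 0.53 with a median of 0.30, and Tbx3 from 0.08 to 0.74 with a median of 0.30. Of the 6905 genes fitted in all 12 populations, 5.18% were above 0 in all of them, and the populations share their libraries. Tbx4 was above 0 in 11 of 12, Tbx2 in 10 of 12 and Tbx5 in 9 of 12, with medians of 0.19, 0.26 and 0.09. Tbx15 passed the filter on low counts in 3 mesenchymal populations. Tbx18 was fitted in 11 and was above 0 in 6, running from -1.50 to 1.63.

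**Figure D3:**
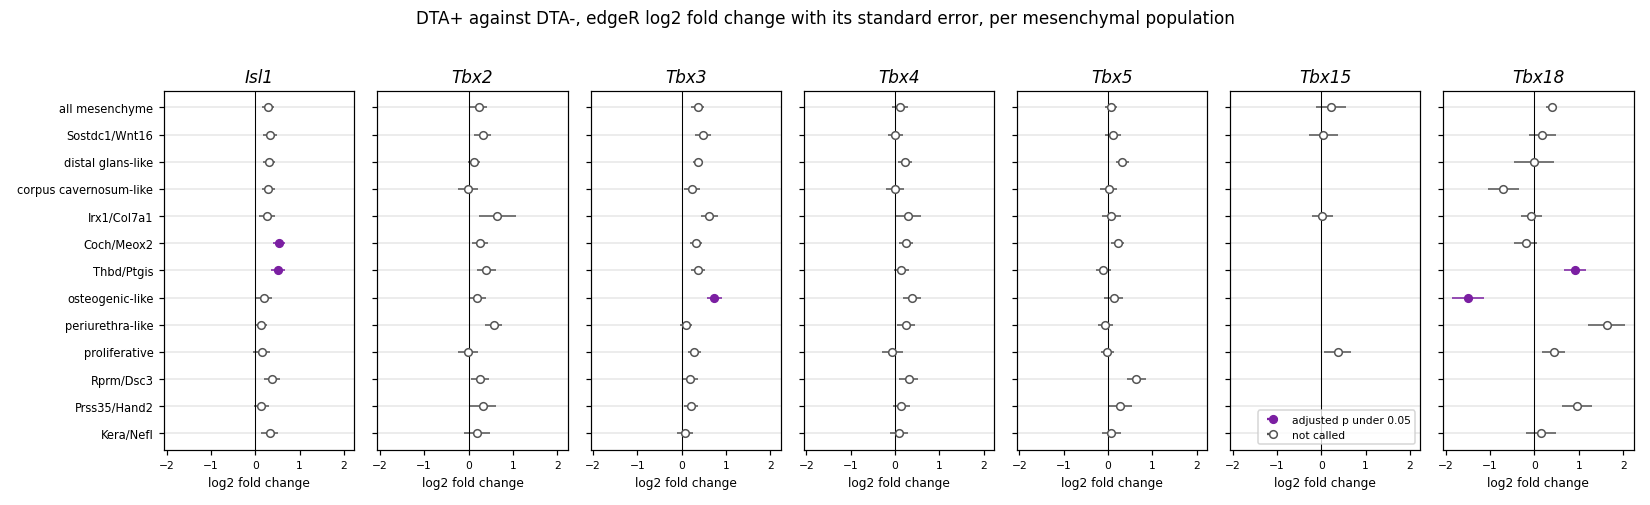
Each panel plots the log2 fold change of DTA+ over DTA- for 1 gene with its standard error (bars) over all mesenchyme and in 12 mesenchymal populations, filled where the adjusted p was under 0.05. Isl1 and Tbx3 stay to the right of 0 throughout, while Tbx18 spreads from -1.50 in the osteogenic-like to 1.63 in the periurethra-like mesenchyme.

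Of 89 pairs of a gene and a population that could be fitted, 74 of them mesenchymal, 5 were called, or 5.62%, where 3.02% of all gene-population pairs were called and 3.8% of the mesenchymal ones. The 5 calls lay in 3 populations, the Coch/Meox2, the Thbd/Ptgis and the osteogenic-like mesenchyme, and a further 15 populations in which at least 1 of the 7 genes was fitted had no call. Within single populations the share of all genes without overlap was not counted, so a lack of overlap there is a description only.

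Isl1 was higher in the Coch/Meox2 mesenchyme of DTA+ embryos. It was at 383, 301, 492 and 515 CPM, both DTA+ libraries above both DTA- libraries, with a fold change of 0.53 ± 0.14 and an adjusted p of 0.0298, and 7.98% of 10064 genes were called in this population. DESeq2 gave 0.53 with an adjusted p of 0.0374. The call was lost without DTA- replicate 2 (0.36, adjusted p = 0.0942), without DTA+ replicate 1 (0.57, 0.208) and without DTA+ replicate 2 (0.50, 0.19). In the Thbd/Ptgis mesenchyme Isl1 was at 298, 232, 400 and 379 CPM, again without overlap, with a fold change of 0.51 ± 0.15 and an adjusted p of 0.0343, where 12.5% of 9987 genes were called. That call held in 7 of 16 alternatives. It was lost with DESeq2 (adjusted p = 0.129), without DTA- replicate 2 (0.32, adjusted p = 0.221), without DTA+ replicate 1 (0.48, 0.213) and without DTA+ replicate 2 (0.54, 0.121). The adjusted p was also 0.0513 with no filter on low counts, 0.114 without the upper UMI limit, 0.124 and 0.256 at clustering resolutions 0.4 and 1.2, and 0.179 with thinned cells. Distal glans markers moved alongside in both populations. They were at 893, 754, 1220 and 1460 CPM in the Coch/Meox2 and at 556, 506, 955 and 1040 CPM in the Thbd/Ptgis mesenchyme. Pericyte markers were at 159, 167, 205 and 216 CPM in the former and at 125, 124, 215 and 180 CPM in the latter. Smooth muscle markers were at 47.6, 34.4, 14.9 and 32.5 CPM in the former and at 114, 132, 42.4 and 35.6 CPM in the latter. The part of these marker sets in the result was not tested.

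Tbx3 was higher in the osteogenic-like mesenchyme, a population marked by Dlx5 in which Spp1, a late bone matrix gene, was not counted. It was at 288, 212, 402 and 433 CPM, without overlap, with a fold change of 0.74 ± 0.17 and an adjusted p of 0.0220, where 3.24% of 9480 genes were called. DESeq2 gave 0.74 with an adjusted p of 0.0468. Without DTA- replicate 2 the fold change was 0.54 (adjusted p = 0.084) and without DTA+ replicate 2 it was 0.67 (adjusted p = 0.154), so either ended the call. It was also lost at clustering resolution 1.2 (0.44, adjusted p = 0.46), with thinned cells (0.67, 0.152) and without the highest doublet scores (0.73, 0.0512). In the distal glans-like mesenchyme Tbx3 was at 400, 365, 501 and 516 CPM, a difference of 0.37 ± 0.11 that did not pass (adjusted p = 0.0662), where 5.05% of 11618 genes were called. The Irx1/Col7a1 mesenchyme had Tbx3 at 178, 167, 242 and 323 CPM, a difference of 0.63 ± 0.19 (adjusted p = 0.264), where 0.683% of 10537 genes were called.

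The antisense gene Tbx3os1 was read beside Tbx3. It was higher in DTA+ in the Thbd/Ptgis mesenchyme, at 99.6, 58.3, 160 and 173 CPM, with a fold change of 1.02 ± 0.20 (adjusted p = 0.00249). In the Coch/Meox2 mesenchyme it was at 160, 117, 195 and 230 CPM, with a fold change of 0.58 ± 0.17 (adjusted p = 0.0436). Whether these calls held under the alternatives was not examined. Over all mesenchyme Tbx3os1 was at 153, 72.8, 122 and 187 CPM, with the genotypes overlapping. In the osteogenic-like mesenchyme, where Tbx3 was called, Tbx3os1 was at 369, 265, 261 and 370 CPM with a fold change of 0.01 ± 0.19. In the populations where one of this overlapping pair was called the other was not. Tbx3 was still higher in DTA+ without overlap in the Thbd/Ptgis mesenchyme, at 201, 169, 236 and 257 CPM. The same held in the Coch/Meox2 mesenchyme, at 308, 310, 391 and 395 CPM. In the quasi-likelihood F test of variation between mesenchymal populations, given below, Tbx3os1 was not called (adjusted p = 0.0679). Tbx3os2, a further opposite-strand gene that does not overlap Tbx3, was called in none of the comparisons that fitted it.

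Tbx18 was called in opposite directions in 2 populations. In the Thbd/Ptgis mesenchyme it was higher in DTA+, at 23.7, 20, 36.9 and 47.7 CPM from 54, 35, 47 and 75 UMIs, with a fold change of 0.91 ± 0.24 and an adjusted p of 0.0176. In the osteogenic-like mesenchyme it was lower in DTA+, at 22.1, 31.5, 5.75 and 10.5 CPM from 36, 23, 6 and 24 UMIs, with a fold change of -1.50 ± 0.36 and an adjusted p of 0.0284. The genotypes overlapped in neither. The first call was lost with DESeq2 (adjusted p = 0.208) and without DTA+ replicate 2 (0.69, adjusted p = 0.228), and with a finer clustering the difference in the matching population was -0.22 (adjusted p = 0.915). It was also lost with a coarser clustering (0.64, adjusted p = 0.104), without the upper UMI limit (0.50, 0.245) and with thinned cells (1.09, 0.153). The second was lost without DTA- replicate 2 (-1.30, adjusted p = 0.0843), without DTA+ replicate 1 (-1.25, 0.1), after integration of the libraries (-1.10, 0.0989) and without the highest doublet scores (-1.51, 0.0679). Only 11 alternatives gave a value for it, of which 7 kept the call. DESeq2 gave no adjusted p for Tbx18 in the osteogenic-like mesenchyme, where its 1 call among these genes was Tbx3. The osteogenic markers themselves were at 730, 744, 457 and 575 CPM in the osteogenic-like mesenchyme, with 4 of 8 lower and 1 higher, and distal glans markers were at 1650, 1500, 2370 and 2380 CPM. Their part in the result was not tested.

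Tbx18 in the periurethra-like mesenchyme, the cells that flank the urethra and carry hedgehog targets and Foxf genes, had the largest fold change among the 89 pairs but was not called. It was at 4.3, 5.37, 21 and 11 CPM from 12, 12, 40 and 36 UMIs, with a fold change of 1.63 ± 0.41 and an adjusted p of 0.0742, where 3.2% of 11003 genes were called. A Tbx18 UMI was seen in 0.35, 0.541, 2.28 and 0.807% of thinned cells and in 1.93, 1.98, 6.64 and 3.92% of unthinned cells, beside at most 2.34% of unthinned endothelial cells in any library, so the DTA- shares lay near background. The higher DTA+ values lay in the Sall3-led of its 2 clusters, at 6.83, 5.65, 30.1 and 21.9 CPM, and the other cluster was at 2.03, 5.12, 4.44 and 0 CPM. Subdermal prepuce markers in the periurethra-like mesenchyme were at 352, 441, 882 and 544 CPM, distal glans markers at 1090, 1020, 1640 and 1620 CPM and endothelial markers at 9.67, 6.72, 22.6 and 26.6 CPM. The distal glans sum is of a mixed set, since of its 7 markers 3 were higher and 3 lower in DTA+ without overlap. The part of these marker sets in the result was not tested.

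**Figure D4:**
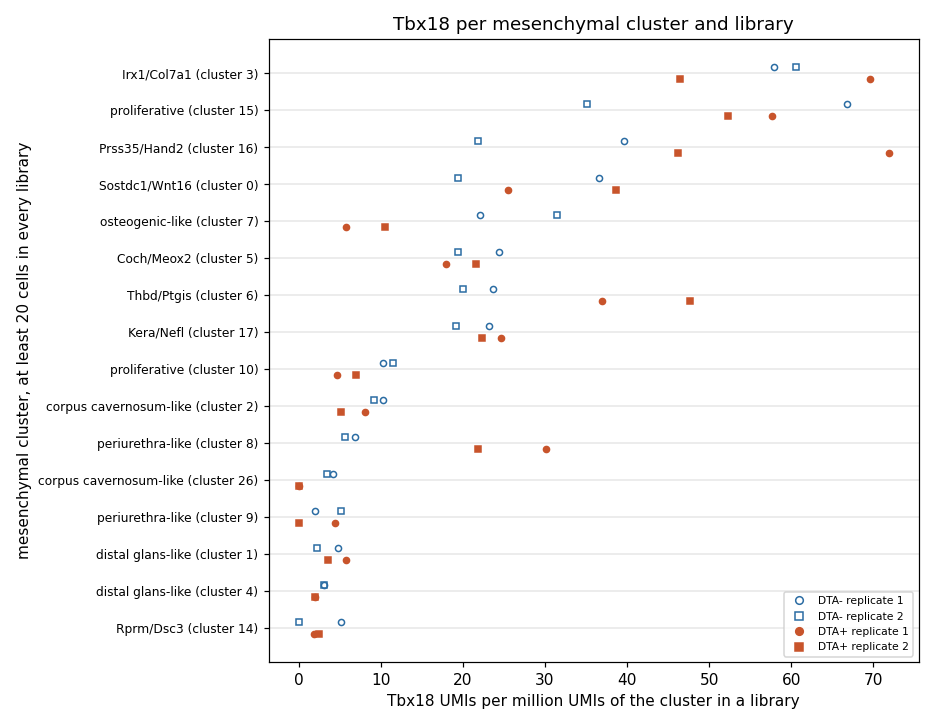
Tbx18 in CPM (linear axis) is plotted for each mesenchymal cluster with at least 20 cells in every library, 1 point a library, open for DTA- and filled for DTA+. The genotypes separate upwards in the Thbd/Ptgis, Sall3-led periurethra-like (cluster 8) and Prss35/Hand2 clusters. They separate downwards in the osteogenic-like cluster, at 22.1 and 31.5 against 5.75 and 10.5 CPM. Downward separation at lower levels is seen in corpus cavernosum-like cluster 2, from 25, 22, 20 and 13 UMIs, and in proliferative cluster 10, from 18, 25, 3 and 8 UMIs. Corpus cavernosum-like cluster 26 and distal glans-like cluster 4 also lie lower in DTA+. They rest on only 1, 1, 0 and 0 and on 7, 4, 2 and 5 UMIs, too few to read as a separation. The share of all genes that separate was not counted per cluster.

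Whether the genotype difference itself varied between the 12 mesenchymal populations was tested in 1 fit over 48 sums, with the library as a block. With that block, the p-values rest on the scatter of population sums within the 4 libraries, not on the spread between libraries. The test asked whether the genotype difference varied. The difference varied for Tbx18 (adjusted p = 0.0137), 1 of the 7 genes, where 9.85% of 12851 genes were called. It was not called for Tbx3 (adjusted p = 0.101), Isl1 (0.353), Tbx15 (0.356), Tbx5 (0.361), Tbx4 (0.79) or Tbx2 (0.896). The Tbx18 call was lost without DTA- replicate 1 and without DTA- replicate 2, each of which left 0 of 7 called, and likewise at clustering resolutions 0.4 and 1.2, after integration of the libraries and with thinned cells. The proliferative mesenchyme joined clusters that differed in Tbx18, since the cluster led by Top2a was at 10.3, 11.5, 4.62 and 6.96 CPM and the one led by Hist1h1b at 66.8, 35.1, 57.7 and 52.3 CPM, with 352, 458, 151 and 239 cells in the first and 149, 319, 288 and 162 in the second.

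Tbx2, Tbx4, Tbx5 and Tbx15 were called in no population. Among their larger differences were Tbx2 in the periurethra-like mesenchyme, at 66.6, 52.8, 106 and 79.7 CPM with a difference of 0.57 ± 0.19 (adjusted p = 0.175), and Tbx5 in the Rprm/Dsc3 mesenchyme, at 92.2, 69.6, 133 and 129 CPM with a difference of 0.64 ± 0.22 (adjusted p = 0.335), where 0.0626% of 7981 genes were called. In the distal glans-like mesenchyme Tbx5 was at 142, 115, 156 and 177 CPM, without overlap and not called. Tbx15, in its own high population, the Irx1/Col7a1 mesenchyme, differed by 0.02 ± 0.24 and Tbx18 there by -0.07 ± 0.24. Outside the mesenchyme, Isl1 in epithelium-like cells differed by -0.04 ± 0.28 and Tbx3 by -0.14 ± 0.34. A difference that was not called does not show that the levels were alike.

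Some mesenchymal populations were almost of 1 genotype and were not fitted alone. Smooth muscle-like cells, not counted as mesenchyme, were also few in DTA+, with 136, 196, 32 and 11 cells, and were not fitted. The prepuce clusters led by genes that include Akap12, a prepuce marker in the study, were the subdermal prepuce-like cluster, with 260, 827, 19 and 7 cells, the Ccn3-led cluster, with 91, 10, 282 and 648 cells, and the Iyd/Stmn2 cluster, with 7, 7, 623 and 384 cells. Tbx18 was itself among the leading genes of the Ccn3-led cluster, at 217 CPM in DTA- replicate 1 and at 88.6 and 153 CPM in the DTA+ libraries, and its level there is no finding between clusters. In the Iyd/Stmn2 cluster the DTA+ libraries held Isl1 at 577 and 561 CPM, Tbx3 at 339 and 344 CPM and Tbx18 at 32.2 and 52.9 CPM. In the subdermal prepuce-like cluster the DTA- libraries held Isl1 at 432 and 369 CPM, Tbx3 at 170 and 136 CPM and Tbx18 at 48.4 and 38.1 CPM.

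Joined after these cell numbers were seen, the 3 clusters gave 1 call among the 7 genes, where 3.54% of 11693 genes were called. Tbx3 was higher in DTA+, at 169, 136, 297 and 266 CPM, without overlap, with a fold change of 0.81 ± 0.16 and an adjusted p of 0.0302, and DESeq2 gave 0.81 with an adjusted p of 0.00466. The call was lost without DTA- replicate 2 (0.68, adjusted p = 0.107) and without DTA+ replicate 1 (0.73, adjusted p = 0.0825), at clustering resolutions 0.4 and 1.2 (adjusted p = 0.0761 and 0.127), after integration (0.0631) and with thinned cells (0.0509). Different clusters hold most cells of each genotype here, and whether Tbx3 differs within a cluster or the clusters differ in number cannot be told apart by this comparison. In the Ccn3-led cluster alone, Tbx3 was at 136 CPM in the 91 cells of DTA- replicate 1 and at 229 and 224 CPM in the DTA+ libraries. The other clusters did not follow it. Tbx3 was at 170, 136, 60.6 and 23.9 CPM in the subdermal prepuce-like cluster, with 19 and 7 DTA+ cells. It was at 547, 223, 339 and 344 CPM in the Iyd/Stmn2 cluster, with 7 and 7 DTA- cells. Such cell numbers are too low to compare the genotypes within a cluster. Tbx18 over the joined clusters was at 87.5, 39.3, 50.2 and 117 CPM, with the genotypes overlapping and an adjusted p of 0.730. Isl1 there was at 406, 371, 534 and 452 CPM (adjusted p = 0.412) and Tbx2 at 69.8, 56.2, 102 and 85.2 CPM (adjusted p = 0.213), both without overlap and neither called. The share of all genes without overlap was not counted in the joined clusters either. Subdermal prepuce markers were at 501, 565, 345 and 473 CPM and smooth muscle markers at 296, 432, 181 and 133 CPM in the joined clusters, and their part in the result was not tested.

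**Figure D5:**
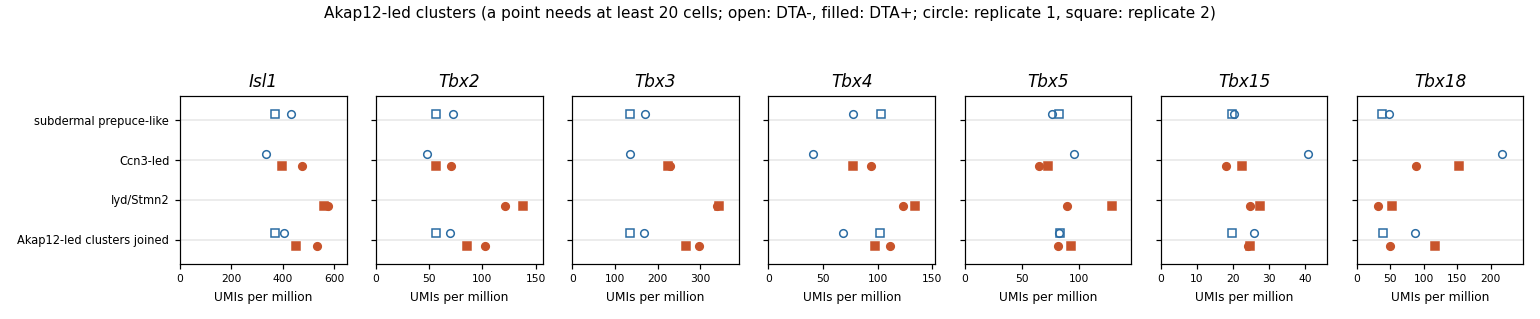
Each panel plots 1 gene in CPM (linear axes that differ between genes) in the 3 Akap12-led clusters and their sum, for libraries with at least 20 cells, open for DTA- and filled for DTA+. Tbx3 in the joined clusters lies at 136 and 169 CPM in DTA- and at 266 and 297 CPM in DTA+, while Tbx18 overlaps.

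Other genes of the same pathways were counted as lists. The lists were chosen with earlier results of these data known, so the shares called are descriptions and no test. Of 11 other T-box genes in the tables, 4 were tested over all mesenchyme and 0 were called, with 0 of 20 gene-population pairs called. Of 19 LIM-homeodomain and LIM cofactor genes, 12 were tested and 1, Ldb2, was called. Ldb2, which encodes an adaptor that joins LIM-homeodomain proteins, was higher by 1.24 on the log2 scale (adjusted p = 0.0261), and it was higher in 7 populations and lower in none. Across populations this list had 17 of 116 pairs called, 11 higher and 6 lower, or 14.7% against the 3.02% of all pairs. Lmo4, whose product competes for the same adaptors, was lower in 5 populations and higher in none, and Ssbp2, a stabiliser of those adaptors, was higher in 2. Most of the 17 calls were thus of Ldb2 and Lmo4.

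Limb and genital outgrowth factors had 16 of 21 genes tested over all mesenchyme with 0 called. Across populations 20 of 201 pairs were called, 17 higher and 3 lower, or 9.95% against the 3.02% of all pairs. Wnt5a, a ligand of distal outgrowth, was higher in 7 populations, the mesenchymal homeobox gene Prrx1 in 4 and the growth factor gene Fgf10 in 3, while Bmp4 was lower in 3. T-box targets and partners had 12 of 16 genes tested over all mesenchyme with 0 called. For them 10 of 182 pairs were called, 5 higher and 5 lower, or 5.49% against the same 3.02%. Among them Gja1, the gap junction gene connexin 43 and a known target of Tbx2 and Tbx3 repression, was higher in 4 populations, with a fold change of 3.01 in the periurethra-like mesenchyme. Ncam1 was higher in 1 and lower in 2.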

How the data were processed

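Penises of E16.5 embryos (2 DTA- and 2 DTA+ libraries) were sequenced by the authors on the 10x Genomics platform, and the deposited values are raw UMI counts per gene and cell barcode, made per the submitters' processing notes with Cell Ranger 4.0.0 on mm10. The study's filters were applied (1000 to 7500 UMIs, mitochondrial share up to 25%, Hba up to 25%, Hbb up to 50%). The study words its UMI limits as those of removed cells, and they were read here as the limits of kept cells. Cells of the 4 libraries were clustered together with Seurat 5.3.0 (2000 variable genes without the 7 members, 30 principal components, resolution 0.8). A population needed 4 enriched markers for a marker name. Scrublet called at most 1 doublet a library and so did not work, and no cell was removed for it.

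Cells are not replicates, so counts were summed per library and population with at least 20 cells in every library and compared by the quasi-likelihood test of edgeR 4.0.16, after scaling by TMM and a filter on low counts (filterByExpr), with DESeq2 1.42.0 as an alternative. The code was tested on simulated data. An exact permutation test of 2 against 2 libraries cannot go below p = 0.333 and was not used. Named genes were the 7 members, opposite-strand genes sharing a member's symbol, list genes called over all mesenchyme or in at least 2 populations, and the 3 genes most like each member among those of at least 20 CPM, with 1 such gene not reported here. Members, gene lists and markers were chosen with earlier results of these data known. Alternatives changed the test, scaling, filters, clustering, depth or libraries used.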

Additional observations from a re-analysis of the deposited data

Results flagged for a closer look

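The DTA+ against DTA- difference in Tbx18 varied between mesenchymal populations (adjusted p = 0.0137, edgeR's quasi-likelihood F test over 12 populations and 48 sums, with the library as a block). It was listed here because the effect of the same contrast differed between populations by a test of that difference. The log2 fold change of Tbx18 was -1.50 ± 0.36 in the osteogenic-like mesenchyme and 0.91 ± 0.24 in the Thbd/Ptgis mesenchyme. The call was lost without DTA- replicate 1, without DTA- replicate 2, at clustering resolutions 0.4 and 1.2, after integration of the libraries and with cells thinned to 1000 UMIs. The other 6 genes did not pass this test, and 9.85% of all genes did.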

How the results depend on the processing

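Over all mesenchyme and over all cells, 0 of the 7 genes were called under every alternative but the crossed pairing given below. The 5 called pairs became 2 with DESeq2, 3 without the upper UMI limit, 1 at resolution 0.4, 1 at resolution 1.2, 3 without the highest Scrublet scores, 1 with cells thinned to 1000 UMIs, and 1 to 10 when a library was left out (1 without DTA- replicate 2). For 1 of the 5, Tbx18 in the osteogenic-like mesenchyme, DESeq2 gave no adjusted p. The number of genes whose difference varied between populations, 1, became 2 with the likelihood ratio test, 2 with no filter on low counts, 2 without the upper UMI limit, 0 at resolution 0.4, 0 at resolution 1.2, 0 after integration of the libraries, 0 with thinned cells, and 0 to 1 when a library was left out. The single call in the joined Akap12-led clusters became 0 at resolution 0.4, 0 at resolution 1.2, 0 after integration, 0 with thinned cells, and 0 to 1 when a library was left out. The causes were not tested. Joined clusters and integrated named pairs were alternatives chosen after seeing the data.

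Some directions reversed. Over all mesenchyme, leaving out a library moved Tbx2 from -0.001 to 0.503, Tbx4 from -0.176 to 0.349, Tbx5 from -0.05 to 0.169 and Tbx15 from -0.253 to 0.683, and thinning gave Tbx15 -0.073. In the joined clusters, leaving out a library moved Tbx4 from -0.087 to 0.54, Tbx5 from -0.096 to 0.081, Tbx15 from -0.138 to 0.187 and Tbx18 from -0.355 to 0.984. Resolution 1.2 gave Tbx2 -0.109, Tbx4 -0.179 and Tbx15 -0.042 there. Thinning gave Tbx4 -0.075 and Tbx5 0.323, no upper UMI limit gave Tbx5 0.055 and Tbx15 -0.017, and no filter gave Tbx5 0.014. Tbx18 in the Thbd/Ptgis mesenchyme was -0.221 at resolution 1.2.

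Replicate numbers are shared in the labels but name no common litter or day, and the difference between replicates 1 and 2 correlated at r = -0.234 between genotypes. With a replicate block, 0 genes were called over all cells, 0 over all mesenchyme, 6 pairs and 1 gene in the joined clusters. With the crossed pairing as a block, added after seeing the data, the counts were 1, 3, 7 and 1.

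With 2 libraries a genotype, every called pair lost its call when at least 1 library was left out, and Tbx15 and Tbx18 counts were too low to be fitted in several populations. Depth differed between genotypes. Genes called over all mesenchyme numbered 179, but 623 with DESeq2, 922 with the likelihood ratio test, 1159 with no filter, 556 with the replicate block, 2366 with the crossed block, 443 at resolution 0.4, 271 after integration, 310 with thinned cells and 239 to 446 when a library was left out. Over all cells they numbered 55, but 551, 657, 658, 334 and 1667 under the first 5 of these, 205 with thinned cells, 20 without the upper UMI limit and 88 to 263 when a library was left out.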
